A study of Mus musculus with 8 samples.

Results

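The genes described here are 41 cyclins, cyclin-dependent kinases (CDKs), CDK inhibitors, E2F factors and retinoblastoma-family genes, taken by symbol from a fixed list out of 54532 genes in the count table. They were followed in bulk RNA sequencing of LSK cells, the fraction of mouse bone marrow without lineage antigens but with Sca-1 and c-Kit, which holds stem and early progenitor cells. Cells came from C57BL/6 mice of the genotype Runx1-Runx1t1, which carry the AML1/ETO fusion of RUNX1 and RUNX1T1 found in a form of acute myeloid leukemia (3 libraries), or from wild-type mice (5 libraries). Both groups received poly(I:C) at 5 mg per kg in 4 injections every other day, and LSK cells were sorted 4 weeks after the treatment. The sources used here do not give the promoter or recombinase that controls the fusion allele, the age of the mice, or whether each library came from a separate animal. The p-values below therefore reflect the spread among these libraries, which may be partly technical. The comparison asks which genes differ when the fusion is present.

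D-type cyclins bind CDK4 and CDK6 in G1 and begin the phosphorylation of the pocket proteins RB1, p107 (Rbl1) and p130 (Rbl2). Phosphorylated pocket proteins release E2F factors, which with a DP partner drive genes of DNA replication, including those of cyclin E and cyclin A. Cyclin E with CDK2 carries cells into S phase, and cyclins A and B with CDK1 carry them through G2 into mitosis. INK4 inhibitors bind CDK4 and CDK6, and CIP/KIP inhibitors bind CDK2 complexes among other cyclin-CDK complexes. In resting cells p130 and E2F4 join the MuvB core to form DREAM, a complex that represses cell cycle genes. Most long-term hematopoietic stem cells are quiescent, and the level of CDK6 is known to bear on how quickly they leave that state.

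Library totals ran from 14693080 to 17527043 counts. Runx1t1, the fusion partner, had 712 to 1971 reads with the fusion and 27 to 132 without it. Every AML1/ETO library held 28559 to 33151 reads of Xist, the RNA that silences an X chromosome in females, and 0 of the Y-linked Ddx3y, where controls held 0 to 111 and 3688 to 5038. Sex and genotype therefore cannot be told apart in any value given here. The first principal component (44.0% of the variance) set the groups apart, and the second (14.3%) set AML1/ETO library 1 and control 1 apart from the other 6. Expected reads of each gene were taken from the other libraries of the same group. These were fewer for AML1/ETO than for the controls, so the shares of the groups are not strictly comparable. Of genes with 20 to 50 expected reads, 41.4%, 44.3% and 51.1% were at 0 in AML1/ETO libraries 1, 2 and 3, as were 46.2% in control 1, against 10.5% to 27.0% in the other controls. A count of 0 in these libraries therefore does not show that a gene was absent, and the part of this difference in the results was not tested. In a bulk sample, fewer cells of a type and less RNA per cell cannot be told apart.

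Of the 41 genes, 17 were lower and 6 were higher in the AML1/ETO libraries at an adjusted p under 0.05 (edgeR quasi-likelihood test, adjusted over 15009 genes), 16 were not called, and Cdkn2a and Cdkn2b had too few reads to be tested. The genes called lower were 41.5% of the 41, beside 14.2% of all genes tested, and those called higher were 14.6%, beside 11.8%. Every AML1/ETO library lay below every control for 18 of the 41 (43.9%, beside 17.5% of all genes tested) and above every control for 5 (12.2%, beside 14.1%). The 39 tested genes had a median log2 difference of -0.89, where that of all genes was -0.09. Of the 17 lower genes, 14 differed by 2-fold or more, but of the 6 higher genes only Cdk6 and E2f5 did. AML1/ETO library 2 had the highest of the 3 values in 12 of the 17 lower genes. This was not counted over all genes called lower. On the first principal component library 2 (-114) lay nearer the controls (77.8 to 96.6) than libraries 1 (-134) and 3 (-164). The count of higher genes was 3 without AML1/ETO library 2 or without control 2, and also 3 with scaling to library totals alone, where Cdk2, Cdkn1b and Rbl2 lost their calls. With limma-voom and quality weights Ccne1, Ccnb2, Cdk2, E2f2, E2f7 and Lin52 lost their calls, and without a filter on low counts Ccnd1, E2f5 and Lin52 did. The scaling to library totals gave 1432 higher and 2704 lower genes in all, beside 1767 and 2133 with the scaling used here, and moved the median over all genes to -0.24. Ccnd1, Cdc25c and Cdkn1c had 10 or more reads in only 2 AML1/ETO libraries and were tested because of their counts in the controls.

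**Figure D1:**
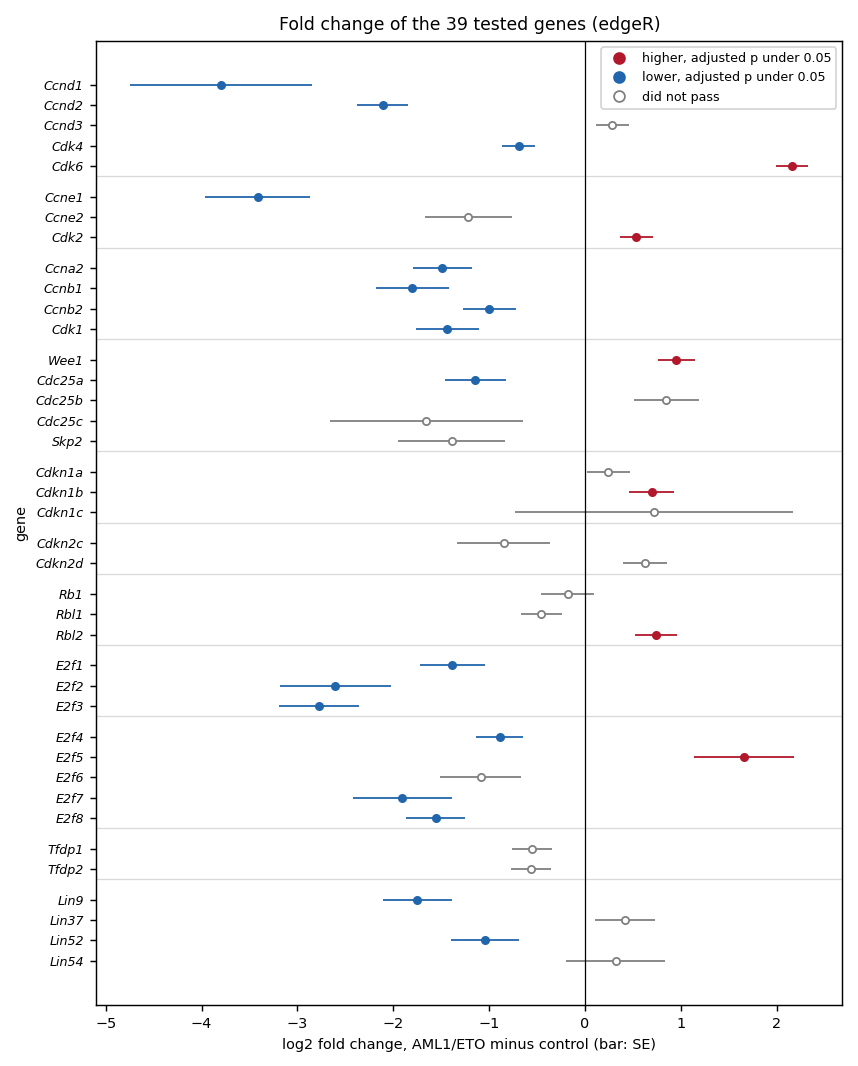
Log2 fold change (AML1/ETO minus control) of the 39 tested genes, ordered by role, with bars of 1 standard error (derived from the test statistic) and colour for the edgeR call at an adjusted p under 0.05. The A and B cyclins with Cdk1 and the activating E2Fs all lie to the left of 0, while Cdk6, at 2.16, lies farthest to the right.

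Among the D-type cyclins and their kinases, Cdk6 was higher and Ccnd1, Ccnd2 and Cdk4 were lower, so that within this step of G1 the members moved in opposite directions. Values are CPM, counts scaled to library size with TMM factors, given as libraries 1 to 3 of AML1/ETO and 1 to 5 of the controls, and log2 differences are AML1/ETO minus control. Cdk6 (chromosome 5, 3341485 to 3531008, plus strand, mm10) stood at 1339, 1643 and 1874 CPM in AML1/ETO and at 319.7, 297, 359, 358 and 474 CPM in the controls. Each AML1/ETO library was far above the highest control. The means were 1619 ± 268 (SD, n = 3) and 361 ± 68.3 (SD, n = 5), a 4.48-fold difference, with a log2 difference of 2.16 (SE 0.17; adjusted p = 2.18e-06). It was the member with the smallest p. Its partner kinase Cdk4 (chromosome 10, 127063534 to 127067920) went the other way, with 140.0, 225 and 184 CPM against 327, 270.1, 306, 264 and 309.7 CPM, and no AML1/ETO library reached the lowest control. Its log2 difference was -0.69 (SE 0.17; adjusted p = 0.0103). Cdk4 shares 641 exon bases with Tspan31 on the other strand.

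Ccnd2, the cyclin D2 gene (chromosome 6, 127125162 to 127152193), had 74.4, 30.7 and 39.4 CPM in AML1/ETO and 227, 224, 179.6, 191 and 217 CPM in the controls. All 3 AML1/ETO libraries were far below the lowest control, with library 1 the highest of them. It was 4.31-fold lower, with a log2 difference of -2.11 (SE 0.27; adjusted p = 9.9e-05). Ccnd1, encoding cyclin D1 (chromosome 7, 144929931 to 144939925), was at 4.91, 1.31 and 0 CPM against 27.9, 34.3, 32.5, 27.96 and 20.3 CPM. One AML1/ETO library held no read of it and library 1 held most of what there was, yet all were below every control. The log2 difference was -3.80 (SE 0.95; adjusted p = 0.0135), which became -5.42 without AML1/ETO library 1, and -3.56 (adjusted p = 0.0555) without library 2. Ccnd1 shares 1100 exon bases with LTO1 on the other strand, so reads of these genes could not be separated if strand was not used in counting. Ccnd3, encoding cyclin D3, was not called: 219, 149 and 180.0 CPM against 122, 136, 179.7, 151 and 159 CPM, a log2 difference of 0.29 (SE 0.18; adjusted p = 0.265). Its AML1/ETO values overlapped the controls.

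On a scale per exon length (RPKM), which allows genes to be set side by side, the make-up of the D cyclins and of their kinases differed between the groups. Ccnd3 supplied 79.8% ± 5.34 of summed D cyclin RPKM in AML1/ETO (SD, n = 3) and 37.7% ± 5.13 in the controls (SD, n = 5). Ccnd2 supplied 18.7% ± 3.99 and 48.9% ± 5.23, and Ccnd1 1.48% ± 1.54 and 13.4% ± 2.38. The ranges of each share did not overlap between the groups. The summed D cyclin level was 26.4 ± 6.88 RPKM against 45.2 ± 1.48 RPKM. Cdk6 made up 67.4% ± 3.93 of Cdk4 plus Cdk6 in AML1/ETO and 22.1% ± 3.04 in the controls. The ratio of Cdk6 to Cdk4 ran from 1.70 to 2.37 in AML1/ETO and from 0.227 to 0.356 in the controls, which places Cdk6 above Cdk4 in each AML1/ETO library and below it in each control. At 116 ± 19.2 RPKM (SD, n = 3) Cdk6 had the highest mean of the 41 genes in AML1/ETO, where Cdkn1a stood at 85.7 ± 32.8 and Cdk4 at 56.3 ± 13.1, but in library 1 Cdkn1a (123 RPKM) was above Cdk6 (95.7 RPKM). In the controls Cdk4 had the highest mean, at 90.9 ± 8.29 RPKM (SD, n = 5), followed by Cdkn1a at 72.3 ± 13.1, and Cdk6 was at 25.8 ± 4.88. Exon lengths take in all annotated exons, and these orders are descriptions without a test.

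**Figure D2:**
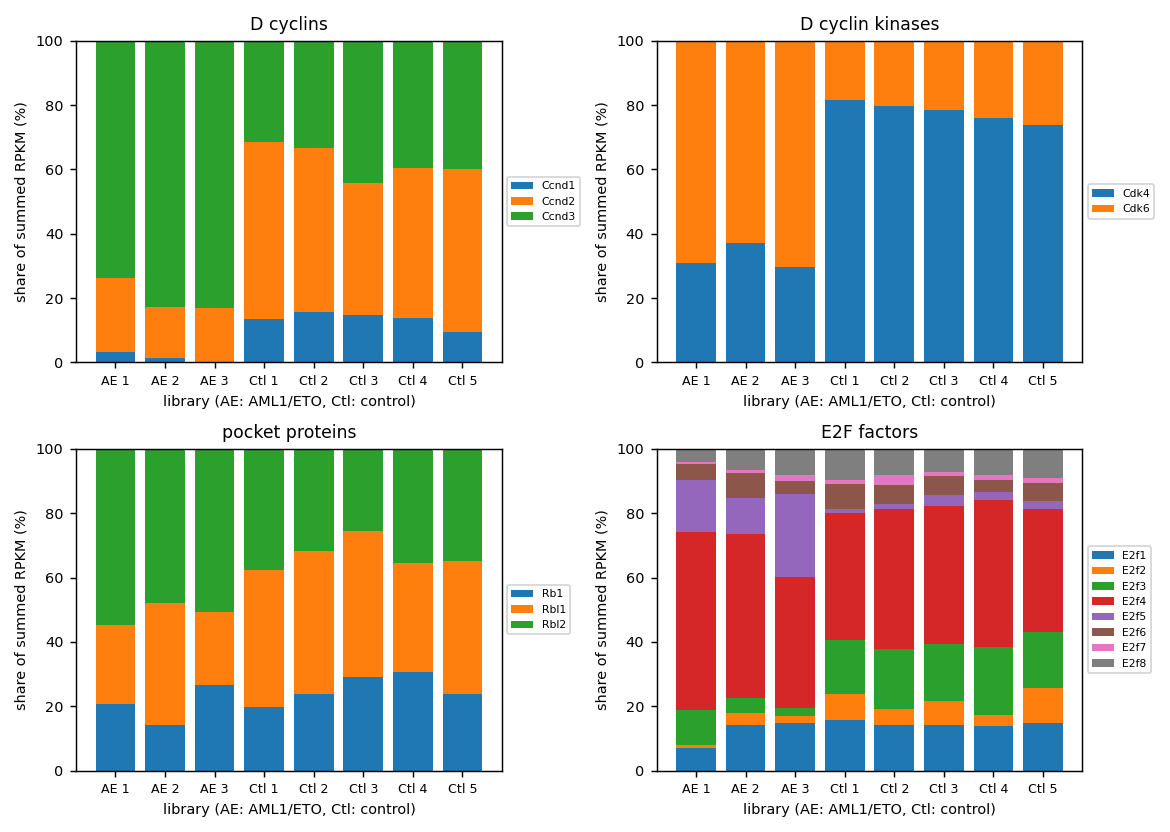
Share of each family's summed RPKM (percent) taken by its members, as stacked bars, one per library, for 3 AML1/ETO and 5 control libraries. On average Ccnd3 takes 79.8% of the D cyclins in AML1/ETO and 37.7% in controls, and Cdk6 takes 67.4% and 22.1% of the D cyclin kinases.

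Of the genes of S phase entry, Ccne1 was lower and Cdk2 slightly higher. Ccne1, the cyclin E1 gene (chromosome 7, 38097984 to 38107534), was at 1.28, 1.37 and 1.24 CPM in AML1/ETO and 11.4, 9.89, 16.3, 12.8 and 19.2 CPM in the controls. The 3 AML1/ETO values rested on only 17, 22 and 19 reads and lay close together, far under the lowest control. This was a 10.7-fold difference and a log2 difference of -3.41 (SE 0.55; adjusted p = 0.000591). In limma-voom with quality weights the call was lost (adjusted p = 0.0536). Ccne2, encoding cyclin E2, was not called: 6.27, 7.67 and 10.5 CPM against 7.83, 19.4, 24.8, 15.6 and 27.3 CPM gave a log2 difference of -1.22 (SE 0.45; adjusted p = 0.0656). Control 1 sat among the AML1/ETO values while the other controls were above them, and without control 1 the gene passed (adjusted p = 0.0187). Ccne2 shares 609 exon bases with Ints8 on the other strand. Their kinase Cdk2 had 214, 165 and 142 CPM in AML1/ETO and 111, 109.9, 128, 113 and 137 CPM in the controls, with each AML1/ETO library above each control by a small margin in library 3. The log2 difference of 0.54 (SE 0.17; adjusted p = 0.0321) lost its call without AML1/ETO library 1 (adjusted p = 0.129) or 2 (0.0518), and without control 2 (0.0581) or 4 (0.0552). The ratio of Cdk2 to Ccne1 RPKM was 49.1 to 71.2 in AML1/ETO, where it rested on few Ccne1 reads, and 3.05 to 4.76 in the controls.

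All 4 genes of the A and B cyclins and Cdk1, which act from S phase to mitosis, were lower, and in each of them the groups were apart. For Cdk1, the mitotic kinase (chromosome 10, 69335146 to 69352938), the AML1/ETO libraries gave 22.1, 55.7 and 17.8 CPM and the controls 77.5, 81.1, 103, 78.5 and 91.5 CPM. AML1/ETO library 2 was much closer to the controls than libraries 1 and 3. The log2 difference was -1.44 (SE 0.33; adjusted p = 0.00629), and -2.12 without library 2. Ccna2, encoding cyclin A2 (chromosome 3, 36564865 to 36572150), also had library 2 as the highest of the AML1/ETO libraries, with 10.1, 26.7 and 15.5 CPM against 52.3, 56.3, 46.2, 47.1 and 43.4 CPM and a log2 difference of -1.49 (SE 0.31; adjusted p = 0.00314). It shares 510 exon bases with Exosc9 on the other strand. Ccnb1, encoding cyclin B1 (chromosome 13, 100778650 to 100786570), was at 7.63, 18.9 and 7.25 CPM against 46.4, 33.4, 40.5, 25.7 and 50.4 CPM. Again library 2 was the highest of the 3 and still under every control. Its log2 difference was -1.80 (SE 0.38; adjusted p = 0.00393), and -2.40 without library 2. Ccnb2, encoding cyclin B2 (chromosome 9, 70407692 to 70421547), was at 18.7, 24.5 and 17.2 CPM against 32.3, 43.7, 56.7, 31.3 and 37.1 CPM. Its groups came nearest to each other among the 4 genes, and the log2 difference of -0.997 (SE 0.28; adjusted p = 0.0181) lost its call without AML1/ETO library 3 (adjusted p = 0.0616), control 2 (0.0534) or control 3 (0.0578).

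**Figure D3:**
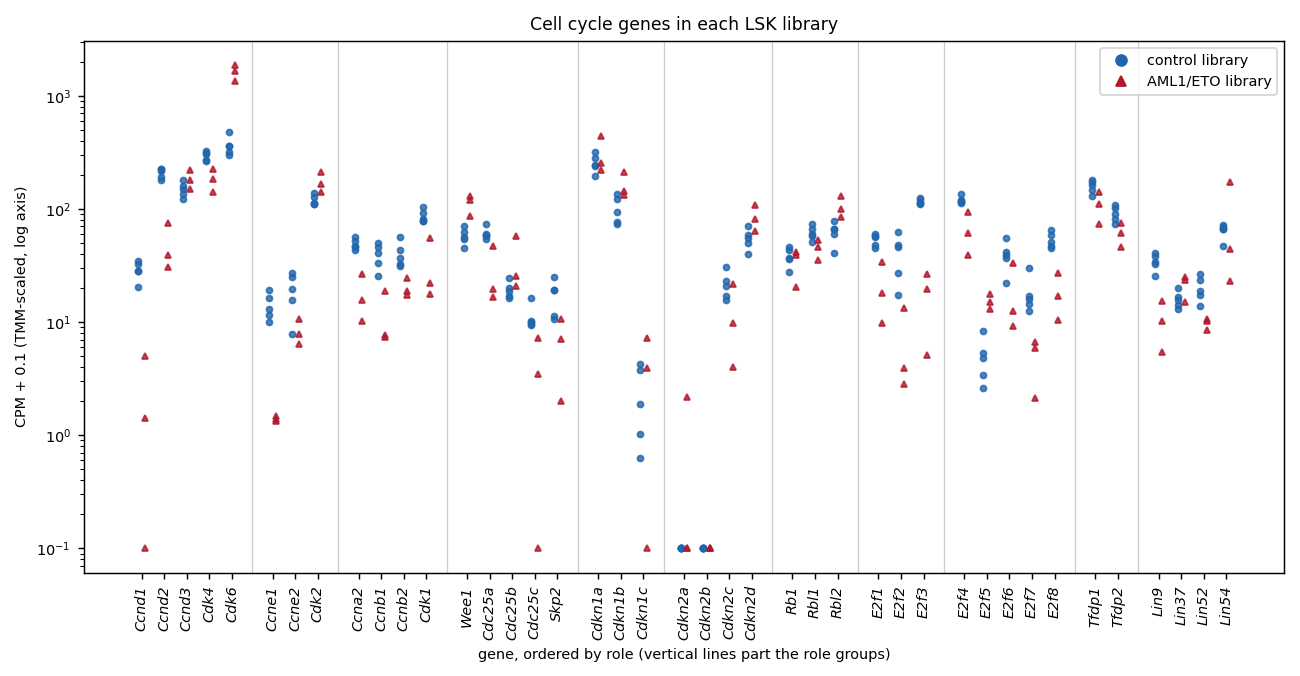
Level of the 41 genes in each library, as TMM-scaled CPM plus 0.1 on a log axis, with a triangle for each AML1/ETO library and a circle for each control. Cdk6 lies at 1339 to 1874 CPM in AML1/ETO against 297 to 474 in controls, whereas Ccne1, at 1.24 to 1.37 against 9.89 to 19.2, shows the opposite placing.

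Cell cycle promoters are known to carry E2F sites, which E2F and DP proteins bind, and CHR elements with CCAAT boxes, which serve MuvB complexes and NF-Y. Since the A and B cyclins, Cdk1 and Cdc25a were lower as Cdk6 was higher, the 250 bases before the RefSeq start (GRCm38.p6) of 3 lower genes and of Cdk6 are shown, 5′ to 3′ on the gene's strand. The positions are chr10:69352913-69353162 (minus) for Cdk1, chr9:70421555-70421804 (minus) for Ccnb2, chr9:109875329-109875578 (plus) for Cdc25a and chr5:3343643-3343892 (plus) for Cdk6. Capitals mark the letters found by a search on both strands for the E2F octamers TTTCGCGC, TTTGGCGC, TTTCCCGC and TTTGCCGC, the CHR hexamers TTTGAA and TTCGAA, and CCAAT, which reads ATTGG where it lies on the other strand.
Cdk1: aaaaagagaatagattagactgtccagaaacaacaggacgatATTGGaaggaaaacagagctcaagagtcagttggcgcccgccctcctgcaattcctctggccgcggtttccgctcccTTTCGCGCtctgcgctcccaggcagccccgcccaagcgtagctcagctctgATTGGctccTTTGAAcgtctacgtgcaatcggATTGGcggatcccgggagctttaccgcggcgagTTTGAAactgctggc
Ccnb2: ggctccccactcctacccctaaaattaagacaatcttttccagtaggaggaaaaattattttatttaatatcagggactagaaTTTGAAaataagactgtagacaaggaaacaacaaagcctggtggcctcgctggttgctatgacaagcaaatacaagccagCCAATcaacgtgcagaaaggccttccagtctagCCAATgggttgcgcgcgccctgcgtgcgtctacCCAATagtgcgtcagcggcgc
Cdc25a: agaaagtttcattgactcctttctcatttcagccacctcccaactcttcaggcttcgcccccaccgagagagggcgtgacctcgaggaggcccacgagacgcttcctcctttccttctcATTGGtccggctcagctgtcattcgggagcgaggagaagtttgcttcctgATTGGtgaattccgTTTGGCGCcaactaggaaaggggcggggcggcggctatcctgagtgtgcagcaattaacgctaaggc
Cdk6: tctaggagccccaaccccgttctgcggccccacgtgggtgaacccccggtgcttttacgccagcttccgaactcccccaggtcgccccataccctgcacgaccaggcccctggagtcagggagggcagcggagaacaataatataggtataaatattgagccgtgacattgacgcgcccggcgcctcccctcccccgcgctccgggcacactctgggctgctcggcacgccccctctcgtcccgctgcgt
The stretch of Cdk1 held 1 E2F octamer, 2 CHR hexamers and 3 CCAAT boxes, that of Ccnb2 held 1 CHR hexamer and 3 CCAAT boxes, that of Cdc25a held 1 E2F octamer and 2 CCAAT boxes, and that of Cdk6 held none of these letters. RefSeq windows of 300 bases, from 250 before to 50 after the start, were at hand for 30 of the 41 genes. The stretches shown do not stand for all called genes. Like Cdk6, the lower genes Ccne1, Cdk4 and E2f1 held none of these letters in their windows, and Ccnb1 held 2 CCAAT boxes alone. The E2f1 window (chr2:154569377-154569676) lay wholly inside that gene's annotated span (154559407 to 154569892), and the Cdk6 window inside its own (3341485 to 3531008). Sequence before the spans of E2f1 and Cdk6 was therefore not searched. Of the other higher genes, Cdk2 held 1 E2F octamer and 1 CCAAT box, Cdkn1b 3 CCAAT boxes and Rbl2 1 CHR hexamer. An E2F octamer was found in 6 of the 12 lower genes with a window, in 1 of the 4 higher genes and in 2 of the 12 genes without a call, beside 2.605% of all 27025 genes in the RefSeq table. Of the 2 untested genes, Cdkn2a and Cdkn2b, 1 held it. A CHR hexamer together with CCAAT was found in 5 of 12, 0 of 4 and 4 of 12, beside 8.614% of all genes. For all these shares a gene was counted if any of its windows held the letters, and some genes had more than 1 window. For CHR with CCAAT, the lower gene E2f2 and the uncalled gene Lin54 were counted only through a window wholly inside the gene's annotated span. A match is a description of letters and not a bound site, and its absence from these windows says nothing about binding.

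The phosphorylation switch on CDK1 and CDK2 was represented by Wee1, the kinase that adds the inhibitory phosphate, and the Cdc25 phosphatases that remove it. Wee1 (chromosome 7, 110122046 to 110143286) was higher, with 86.2, 129 and 121 CPM in AML1/ETO and 45.4, 54.7, 62.6, 56.7 and 69.9 CPM in the controls. No control reached the lowest AML1/ETO library, and the log2 difference was 0.95 (SE 0.20; adjusted p = 0.00308). Cdc25a, which acts at S phase entry (chromosome 9, 109875579 to 109893895), was lower, with 16.5, 46.8 and 19.6 CPM against 74.1, 58.1, 59.1, 54.5 and 59.7 CPM. AML1/ETO library 2 lay close under the controls and the other 2 libraries well below. The log2 difference of -1.14 (SE 0.32; adjusted p = 0.0185) was -1.77 without library 2 and lost its call without library 3 (adjusted p = 0.0691) and without both first libraries (0.0844). Cdc25b, which acts at the start of mitosis, was not called (25.3, 57.7 and 20.9 CPM against 24.4, 16.3, 20.04, 16.9 and 18.6 CPM; log2 difference 0.85, SE 0.34, adjusted p = 0.0828). Its AML1/ETO libraries overlapped the controls at library 3, and when that library was left out the gene did pass (adjusted p = 0.0350). Library 2 was far above the other 7, and without it the difference was 0.26 (adjusted p = 0.612). Cdc25c was not called either (7.18, 3.37 and 0 CPM against 9.87, 9.31, 16.4, 10.2 and 9.51 CPM; log2 difference -1.65, SE 1.01, adjusted p = 0.262), although its AML1/ETO libraries were all below the controls, with none of its reads in library 3. Its difference was -2.71 without AML1/ETO library 1 and -1.08 without library 3. Skp2, the F-box protein that marks p27 for degradation, had 1.89, 10.5 and 6.99 CPM against 19.3, 10.5, 24.8, 19.3 and 11.2 CPM and was not called (log2 difference -1.39, SE 0.56, adjusted p = 0.0857), but passed without AML1/ETO library 2 (adjusted p = 0.0391). That library lay level with the lowest controls, the other 2 below them. The ratio of Wee1 to Cdk1 RPKM was 3.34 to 9.83 in AML1/ETO and 0.846 to 1.10 in the controls.

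The CDK inhibitors showed few calls. Of the CIP/KIP genes, Cdkn1b, encoding p27 (chromosome 6, 134920401 to 134925513), was higher, with 133, 212 and 143 CPM in AML1/ETO and 74.1, 76.5, 93.7, 136 and 122 CPM in the controls. AML1/ETO library 1 lay among the controls, and only library 2 was well above them. The log2 difference of 0.70 (SE 0.23; adjusted p = 0.0426) lost its call without AML1/ETO library 2 (adjusted p = 0.208) or 3 (0.0530), and without control 1 (0.0714), 2 (0.0817) or 3 (0.0721). Cdkn1a, encoding p21, the inhibitor induced by p53, was at 437, 219.8 and 256 CPM against 319, 247, 284, 197 and 237 CPM and was not called (log2 difference 0.24, SE 0.22, adjusted p = 0.486). Library 1 was the highest of all 8 and the other AML1/ETO libraries were within the controls. Without it the difference was -0.12. Cdkn1c, encoding p57, was low, at 0 to 7.10 CPM against 0.527 to 4.15, and was not called (log2 difference 0.72, SE 1.45, adjusted p = 0.789). The sign of its difference turned without AML1/ETO library 1, to -0.21.

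None of the INK4 genes, whose products bind CDK4 and CDK6, passed the test. Cdkn2d, encoding p19, was the most abundant of them, with 109, 82.03 and 63.6 CPM against 49.5, 39.6, 71.3, 55.7 and 59.1 CPM and a log2 difference of 0.63 (SE 0.23; adjusted p = 0.0617). Library 3 lay within the controls, and leaving out that library (adjusted p = 0.0335) or control 3 (0.0345) let the gene pass. Cdkn2c, encoding p18, had 9.75, 21.8 and 3.92 CPM against 15.7, 16.98, 20.7, 22.8 and 30.6 CPM (log2 difference -0.85, SE 0.48, adjusted p = 0.227). AML1/ETO library 2 was within the controls and the other 2 libraries were below them, and without library 2 the difference passed (-1.65; adjusted p = 0.0254). Cdkn2a, which encodes p16 and ARF, had 32 reads in AML1/ETO library 3 and 0 in the other 7 libraries, and Cdkn2b had 0 in all 8.

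Among the pocket proteins, Rbl2, encoding p130 (chromosome 8, 91070057 to 91123844), was higher. It had 129.5, 85.2 and 99.7 CPM in AML1/ETO against 66.8, 60.01, 40.9, 66.5 and 78.7 CPM in the controls, with the groups apart by a small margin between AML1/ETO library 2 and control 5. The log2 difference of 0.74 (SE 0.22; adjusted p = 0.0247) lost its call without AML1/ETO library 1 (adjusted p = 0.0954). Rbl2 shares 693 exon bases with Aktip on the other strand. Rbl1, encoding p107, was at 46.3, 53.6 and 35.4 CPM against 59.9, 66.5, 57.4, 50.6 and 74.3 CPM and was not called (log2 difference -0.45, SE 0.21, adjusted p = 0.135). Its library 2 lay within the controls and the other 2 AML1/ETO libraries below them. Rb1 was at 38.7, 20.3 and 41.5 CPM against 27.9, 35.8, 37.1, 45.9 and 43.1 CPM (log2 difference -0.18, SE 0.28, adjusted p = 0.715), with AML1/ETO library 2 under all others and a difference of 0.07 without it. Rb1 shares 488 exon bases with Rcbtb2 and 408 with Lpar6 on the other strand. Per length, Rbl2 supplied 51.1% ± 3.50 of summed pocket protein RPKM in AML1/ETO (SD, n = 3) and 33.0% ± 4.66 in the controls (SD, n = 5). The ratio of Rbl2 to Rbl1 RPKM was 1.26 to 2.23 in AML1/ETO and 0.565 to 1.04 in the controls.

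The activating E2Fs, which drive the genes of DNA replication, were all 3 lower. E2f3 (chromosome 13, 29906575 to 29986063) was at 26.5, 19.3 and 5.03 CPM in AML1/ETO and 112, 110.1, 124, 121 and 113 CPM in the controls. The controls were almost level and every AML1/ETO library was far under them. It was 6.83-fold lower, a log2 difference of -2.77 (SE 0.42; adjusted p = 0.000554). E2f2 (chromosome 4, 136172394 to 136196057) was at 2.72, 13.2 and 3.85 CPM against 47.7, 27.2, 46.3, 17.3 and 62.6 CPM. Its controls spread widely, and the nearest values were those of AML1/ETO library 2 and control 4. The log2 difference was -2.61 (SE 0.58; adjusted p = 0.0056), and -3.61 without AML1/ETO library 2. E2f1 (chromosome 2, 154559407 to 154569892) was at 9.75, 33.6 and 18.1 CPM against 60.4, 48.3, 57.2, 45.5 and 55.9 CPM, again with library 2 the highest of the AML1/ETO libraries. The log2 difference was -1.38 (SE 0.34; adjusted p = 0.00947).

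Of the E2Fs known mainly as repressors, E2f4, E2f7 and E2f8 were lower and E2f5 was higher. E2f8 (chromosome 7, 48866429 to 48881596), an atypical E2F that acts without a DP partner, was at 10.3, 27.2 and 16.8 CPM against 64.4, 47.3, 50.96, 45.4 and 58.4 CPM, with every AML1/ETO library well under the controls. Its log2 difference was -1.56 (SE 0.31; adjusted p = 0.00249). E2f7, the other atypical E2F, was at 2.04, 5.80 and 6.53 CPM against 12.3, 30.3, 14.4, 15.9 and 16.96 CPM (log2 difference -1.90, SE 0.51, adjusted p = 0.0155). Control 2 was far above the other controls, and without it the call was lost (adjusted p = 0.0609). E2f4, the E2F found with p130 in DREAM (chromosome 8, 105297663 to 105305370), was at 61.2, 93.4 and 38.7 CPM against 119, 115, 135, 116 and 112 CPM. Library 2 was nearest to the controls, and the log2 difference of -0.89 (SE 0.24; adjusted p = 0.0162) lost its call without both first libraries (adjusted p = 0.0532). E2f5, which like E2F4 binds pocket proteins (chromosome 3, 14578641 to 14606309), was at 13.00, 14.9 and 17.6 CPM against 2.51, 3.34, 8.18, 4.71 and 5.21 CPM. All 3 AML1/ETO libraries were above the highest control. The log2 difference of 1.66 (SE 0.52; adjusted p = 0.0315) lost its call without AML1/ETO library 2 (adjusted p = 0.0661) or 3 (0.101) and without control 2 (0.0632) or 4 (0.0531). E2f6, which represses without pocket proteins, was not called (12.3, 33.2 and 9.21 CPM against 55.4, 36.6, 41.2, 21.97 and 38.9 CPM; log2 difference -1.09, SE 0.42, adjusted p = 0.0765), but passed without AML1/ETO library 2, with a difference of -1.86 (adjusted p = 0.00347). The E2F genes together summed to 52.8 ± 19.4 RPKM in AML1/ETO (SD, n = 3) and 117 ± 9.97 RPKM in the controls (SD, n = 5). E2f4 was the largest share in both groups (49.1% ± 7.36 and 41.9% ± 2.94), and E2f5 took 17.6% ± 7.32 against 2.29% ± 0.916.

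The DP partners were not called. Tfdp1 was at 73.2, 141 and 111 CPM against 130.1, 172, 181, 148 and 162 CPM (log2 difference -0.55, SE 0.21, adjusted p = 0.0717), and Tfdp2 at 46.1, 75.7 and 61.6 CPM against 72.8, 101, 81.4, 108 and 89.4 CPM (log2 difference -0.57, SE 0.21, adjusted p = 0.0638). In both the highest AML1/ETO library was library 2, and both passed without it (adjusted p = 0.0179 and 0.0300). Of the MuvB core, Lin9 and Lin52 were lower. Lin9 (chromosome 1, 180641150 to 180690694) was at 10.1, 15.2 and 5.29 CPM against 25.3, 34.2, 41.1, 37.95 and 32.3 CPM, with the groups well apart and a log2 difference of -1.75 (SE 0.36; adjusted p = 0.00314). Lin52, the subunit that links the core to p130, was at 8.46, 10.04 and 10.6 CPM against 18.7, 17.4, 26.3, 13.7 and 23.5 CPM. Its AML1/ETO libraries were close together under the lowest control, but the log2 difference of -1.04 (SE 0.35; adjusted p = 0.0468) lost its call in 7 of the 8 fits that left out 1 library, all but that without control 4 (adjusted p = 0.0562 to 0.126). Lin37 was not called (25.1, 23.6 and 14.95 CPM against 20.03, 16.7, 14.00, 15.6 and 13.1 CPM; log2 difference 0.42, SE 0.31, adjusted p = 0.378), and its library 3 lay within the controls. Lin54, which binds the CHR element, was at 173, 23.2 and 44.1 CPM against 46.7, 72.7, 65.8, 68.8 and 66.98 CPM (log2 difference 0.32, SE 0.52, adjusted p = 0.729). AML1/ETO library 1 was far above all others and the remaining 2 were under every control. Without library 1 the difference was -0.94 (adjusted p = 0.0242).

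Genes downstream of this network were read from 4 further lists, beside 14.2% of genes called lower, 11.8% called higher and a median of -0.09 over all genes tested. Of 20 E2F target genes of G1/S, 16 were lower, 0 were higher and 4 were not called, with a median log2 difference of -1.73. Those with the smallest p were Rrm1, a subunit of ribonucleotide reductase (-1.89; adjusted p = 0.000138), Mcm7 of the replicative helicase (-1.50; adjusted p = 0.000336), Pola1, the catalytic subunit of DNA polymerase alpha (-1.64; adjusted p = 0.000519), and Uhrf1, which maintains DNA methylation (-1.90; adjusted p = 0.000556). Pcna, the sliding clamp, was not called (0.06; adjusted p = 0.840). Of 20 DREAM and MYBL2-FOXM1 target genes of G2/M, 13 were lower, 0 were higher and 7 were not called, with a median of -1.31. Mki67, the proliferation marker (-1.60; adjusted p = 0.000279), Kif11, a spindle motor (-1.86; adjusted p = 0.000555), Aurkb, a mitotic kinase (-1.48; adjusted p = 0.00112), and the transcription factor gene Foxm1 (-1.22; adjusted p = 0.00615) had the smallest p, and Plk1, another mitotic kinase, was not called (-0.22; adjusted p = 0.792). Summed CPM of the G1/S list was 963, 1676 and 1095 in AML1/ETO libraries 1 to 3 and 2767 to 3460 in the controls, and that of the G2/M list was 759, 1063 and 516 against 1816 to 2000. Library 2 was highest of the AML1/ETO libraries in both sums, as in 12 of the 17 lower cyclin, CDK and E2F genes.

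Of 23 CDK accessory, ubiquitin ligase and APC/C genes, 4 were higher, 4 lower and 15 not called (median -0.32). Both counts were near the shares over all genes tested, 11.8% higher and 14.2% lower. By smallest p, the higher ones included Cdk9 (0.73; adjusted p = 0.00276) and its cyclin Ccnt1 (1.32; adjusted p = 0.00337), which act in transcription elongation, and the lower ones included Pkmyt1, a kinase that inhibits CDK1 (-1.80; adjusted p = 0.00106), and the CDK subunit gene Cks1b (-1.72; adjusted p = 0.00171). Of 15 genes linked to stem cell quiescence, 14 were tested, 9 were higher and 0 lower, with a median of 1.55. The genes with the smallest p were Nr4a1 (3.20; adjusted p = 3.5e-08), Btg2 (3.89; adjusted p = 1.7e-07), Egr1 (2.98; adjusted p = 3.78e-07) and Btg1 (2.33; adjusted p = 9.99e-07). Nr4a1, Egr1 and Btg2 are also known as immediate early genes. Foxo3, a forkhead factor, was not called (-0.01; adjusted p = 0.973).

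**Figure D4:**
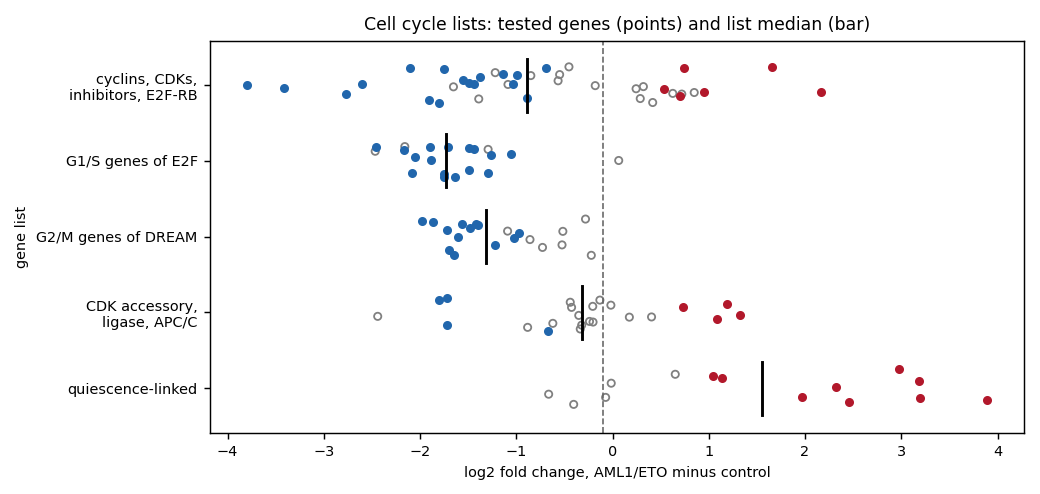
Log2 fold change (AML1/ETO minus control) of each tested gene among the 41 and in the 4 further lists, with filled points for edgeR calls (red higher, blue lower), a black bar at each median and a dashed line at the median of all genes. The medians are -1.73 for G1/S targets, -1.31 for G2/M targets, -0.32 for accessory genes and 1.55 for quiescence-linked genes.

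Markers of the sorted population and of other cell types also differed between the groups. Over all genes tested, 11.8% were called higher and 14.2% lower. Of 9 LSK and stem cell markers 8 were higher and 0 lower, with summed CPM of 3065 to 4456 in AML1/ETO and 1413 to 1776 in the controls. Kit, the gene of c-Kit, averaged 1384 CPM in AML1/ETO and 430.0 CPM in the controls, and Ly6a, the gene of Sca-1, had 220.2, 256 and 919 CPM in AML1/ETO libraries 1 to 3 and 8.25 to 23.4 CPM in the controls, although cells of both groups were sorted for it. Library 3 held by far the most Ly6a. Of 10 mast cell and basophil markers, 9 were tested, 7 were higher and 1 was lower. They summed to 3224 to 7854 CPM in AML1/ETO and 276 to 351 CPM in the controls. In AML1/ETO the largest part of that sum was Cpa3, a mast cell protease, at 1768, 3622 and 6125 CPM in libraries 1 to 3 against 9.34 to 22.7 CPM in the controls. In the controls it was Gata2, a transcription factor also of stem cells, at 219 to 303 CPM. Cma1 and Tpsb2 had 0 reads in every control while Prss34 had 0 in every AML1/ETO library. Of 12 neutrophil and monocyte markers 7 were lower and 0 higher (414 to 1323 CPM against 1619 to 3986 CPM), and Cx3cr1 had 0 reads in all AML1/ETO libraries. Of 12 lymphoid markers 9 were tested, 6 were lower and 1 was higher (176 to 384 CPM against 189 to 492 CPM). Cd3e, Cd3g and Cd8a were at 0 in all 8 libraries and Ighm, Rag1, Pax5, Ebf1 and Cd79a at 0 in all AML1/ETO libraries. Of 8 erythroid markers 7 were tested, 1 was higher and 2 were lower (77.5 to 104 CPM against 112 to 209 CPM). Of 7 megakaryocyte markers 6 were tested, 1 was higher and 3 were lower (216 to 912 CPM against 380.2 to 512 CPM), with Vwf, Gp9 and Gp1bb at 0 in all AML1/ETO libraries. In the lymphoid, erythroid and megakaryocyte lists the 1 higher gene was near the share over all genes, as was the 1 lower mast cell gene. The part of the marker differences in the values of the cyclins, CDKs, inhibitors and E2Fs was not tested.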

How the data were processed

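RNA sequencing counts per gene from 3 AML1/ETO and 5 control LSK libraries were used as the authors deposited them. Reads were processed with HISAT2 2.0.5 and featureCounts 1.5.0-p3 on mm10, per the submitters' processing notes. The sources used here give no annotation release, strand setting or treatment of duplicate reads. Groups followed the genotype labels. Genes passing filterByExpr were scaled by TMM and tested in edgeR 4.0.16 (R 4.3.3) with robust quasi-likelihood fits and Benjamini-Hochberg adjustment over 15009 genes (called under 0.05), giving a biological coefficient of variation of 72.6%. Each SE was derived from the test, as the size of the log2 difference over the square root of the F statistic. RPKM used GENCODE M21 exon lengths. DESeq2 1.42.0, limma-voom 3.58.1, other scalings and filters, omission of each library and a replicate block were alternatives. The test was also run on simulated negative binomial counts. These held no component shared between libraries, so no conclusion about the calls is drawn from them. All 41 members are named, with the 4 genes of smallest p in each other pathway list; Pcna, Plk1, Foxo3 and the marker genes were named after their values were seen. The members and lists were chosen with earlier results of these data known. Promoters came from RefSeq (GRCm38.p6), with 11 members without an entry. Counts and CPM carry sampling error of PCR reads, which are not independent molecules.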

Additional observations from a re-analysis of the deposited data

Results flagged for a closer look

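Single control libraries stood apart from the other 4 controls in 7 of the 74 group values examined, by Dixon's test (the gap to the nearest value over the whole range above 0.71). Chance flags about 1 in 20 such groups. Control 1 was high for Cdc25a, at 74.1 CPM where the other controls had 54.5 to 59.7, and low for Lin54, at 46.7 CPM where the others had 65.8 to 72.7. In the same library the Cdk2 share of summed RPKM over the cell cycle kinases was 11.4%, where the others had 12.7% to 13.0%. Control 2 was high for E2f7, at 30.3 CPM against 12.3 to 17.0, and E2f7 took 3.09% of summed E2F RPKM there against 1.12% to 1.69%. Control 3 was high for Cdc25c, at 16.4 CPM against 9.31 to 10.2, and for E2f4, at 135 CPM against 112 to 119. Groups of 3 libraries were not examined in this way.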

How the results depend on the processing

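Of the 23 called genes, 10 (Ccna2, Ccnb1, Ccnd2, Cdk1, Cdk6, E2f1, E2f3, E2f8, Lin9 and Wee1) kept their direction and call in all 17 alternatives, 13 lost the call in at least 1, and none turned direction. Of the 16 genes without a call, 8 passed in at least 1 alternative with their direction kept, and Lin54 passed with its direction turned. With 1 library left out at a time, the count of higher genes ran from 3 to 6, that of higher switch genes (Wee1, the Cdc25 genes, Skp2) from 1 to 2 and of lower ones from 0 to 2, that of higher genes among the CIP/KIP genes, the E cyclins with Cdk2, the E2F repressors, the INK4 genes and the pocket proteins from 0 to 1 each, that of lower INK4 genes from 0 to 1, of lower E cyclins with Cdk2 and of lower MuvB genes from 1 to 2 and of lower DP partners from 0 to 2. Scaling to library totals alone gave 3 higher genes in all, 0 higher among the CIP/KIP genes, the E cyclins with Cdk2 and the pocket proteins, 2 lower DP partners and 2 lower E cyclin genes. Limma-voom gave 0 higher and 0 lower among the E cyclins and Cdk2 and 1 lower MuvB gene. DESeq2, its size factors, upper-quartile scaling, no filter and the filter of 1 CPM in 3 libraries each gave 1 higher INK4 gene (Cdkn2d), and all of these except DESeq2 itself gave 1 lower MuvB gene. Without a filter, 0 E2F repressors were higher. Without both first libraries, 2 switch genes were higher and 0 lower, 0 E cyclin and Cdk2 genes were higher and 2 lower, and 0 pocket proteins were higher. The cause of these changes was not tested.

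Same-numbered libraries had correlations of 0.0388, -0.0390 and 0.0271 in their deviations from the group means, and not every library was closest to its own number. On the second principal component, however, AML1/ETO library 1 and control 1 lay together (106 and 102), apart from the other libraries. Whether a replicate number marks a batch is not given in the labels and was not tested. A fit with the replicate number as a block called 983 higher and 1097 lower genes, 10 lower members (9 called members lost their calls), 1 lower gene among the D cyclins and their kinases, 1 among the E2F repressors, 1 in the MuvB core and 0 in the switch, and 0 higher E2F repressors and 0 higher E cyclin and Cdk2 genes.

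Genes without a call turned sign in some settings. The log2 difference of Cdkn1a ranged from -0.12 to 0.43 with 1 library left out and was -0.026 without both first libraries. For Cdkn1c the range was -0.21 to 1.30, with -1.14 in limma-voom and -0.81 with the block. Rb1 ranged from -0.37 to 0.074. Lin54 ranged from -0.94 to 0.75, with -0.66 in limma-voom, -1.03 without both first libraries (adjusted p = 0.0150) and -0.16 with the block. Limma-voom gave log2 differences of -6.39 for Ccnd1 and -4.30 for Cdc25c. Counts of Cdkn1c, Cdkn2a and Cdkn2b were few or 0, and differences in them were not detectable here.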
